A study of Homo sapiens with 8 samples.

Results

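Nuclear hormone receptors are transcription factors built from a zinc-finger DNA-binding domain and a domain that in many of them holds a small lipid-soluble ligand. The genes described here were 41 genes of this family, listed by their symbols, out of 60668 genes counted in each library. The family members RXRG, NR2E3 and RORB were set outside the list and are named once near the end. Their RNA was measured in D283 MED cells, a medulloblastoma line in which the study describes MYC levels as amplified. All 8 libraries came from D283-OMO, a hygromycin-selected population transduced with a lentivirus whose FLAG-tagged OMOMYC transgene is switched on by doxycycline (DOX). OMOMYC is a dominant-negative miniprotein that dimerizes with MYC and competes for its DNA sites. The groups were 4 untreated libraries (labelled OMO) and 4 libraries of cells given DOX for 72 h (labelled OMO+DOX), described by the study as independent biological replicates. Control cells therefore carried the transgene too. No DOX-treated cells without the transgene are among these libraries, so the effects of DOX and of OMOMYC cannot be told apart.

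Steroid receptors such as those for glucocorticoids and mineralocorticoids are held by chaperones until a hormone binds and then act as homodimers. The retinoic acid, thyroid hormone, vitamin D, PPAR and LXR receptors sit on DNA as heterodimers with a retinoid X receptor, and many of them hold corepressors when no ligand is present. Orphan receptors such as the COUP-TF, REV-ERB, NR4A and estrogen-related receptors have no classical hormone, and several of them set neural fate, metabolism or daily rhythm. In the developing cerebellum, thyroid hormone and retinoic acid steer the timing of neuronal differentiation, and NR2F1 and NR2F2 pattern neural precursors.

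The 8 libraries held between 38390696 and 54020506 counts, and 3 counts corresponded to 0.0581 to 0.0748 CPM (counts divided by the library total in units of 1e+06, scaled by the TMM factors of edgeR). MYC itself stood at 939 ± 75.6 CPM in untreated and 1123 ± 56.8 CPM (SD, n = 4 each) in DOX-treated cells, and reads from the transgene may be counted in it. The MYC targets CAD and NCL fell by 0.48 and 0.44 on the log2 scale. Of the 7 Group 3 medulloblastoma markers examined (OTX2, CRX, NEUROD1, GABRA5, NPR3, IMPG2 and NRL), all 7 were present in untreated cells and all 7 fell with DOX, from a summed level of 2292 to 2507 CPM per library to one of 725.2 to 743.1 CPM. MYC was planned as a further marker of this group, was left out of the sum and, as given above, stood higher on average with DOX. The 6 neural progenitor and neuronal markers rose in sum without overlap, from 317.8 to 346.2 CPM per library to 411.6 to 432.5 CPM. NES rose by 1.91 and TUBB3 by 0.73 on the log2 scale, DCX (log2FC -1.96), NCAM1 (-0.55) and SYP (-0.18) fell, and SOX2 was near 0. With scaling to library size only the fall of SYP was lost (log2FC -0.05, edgeR quasi-likelihood adjusted p = 0.3). Summed markers of astrocytes stayed at or below 11.35 CPM, mostly from SLC1A2, with GFAP and AQP4 below 0.3 CPM on average. The 4 markers of microglia and blood summed to less than 1 CPM in every library. The 6 endothelial and fibroblast markers summed to 2.03 to 2.64 CPM in untreated and 2.99 to 4.16 CPM in treated cells, and CDH5 went from 0 to 1.85 ± 0.237 CPM. In bulk RNA, fewer cells of a type and less RNA per cell cannot be told apart, and the part of these marker changes in the results below was not tested.

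Of the 41 receptor genes, 33 passed the filter that the study's results state, above 1 CPM in 4 libraries or more, and were tested. Changes are given as log2FC, DOX over untreated, with the standard error (SE) of the fit. With DOX, 17 of the 33 rose and 9 fell at an adjusted p below 0.05 (edgeR quasi-likelihood test, Benjamini-Hochberg adjustment over 15222 genes), and 7 passed in neither direction. The risers were 51.5% of the members tested, against 38.5% of all genes tested, and the fallers 27.3%, against 38.1%. At the thresholds of the study's methods for differential expression (FDR below 0.001 and a log2FC above 2), NR6A1, NR2F1 and NR3C2 rose. These were 3 members, where 4.38% of all genes rose as much. The study's results state an FDR below 0.01, which also gave 3 members. NR2F1 passed the filter through the treated libraries alone, where it is high, and so had to differ to be tested. The study's methods state a stricter filter, 1 CPM in more than 4 libraries. With it, NR2F1 was not tested, 2 members met these thresholds, and 16 of 32 rose and 7 fell at an adjusted p below 0.05. None of the members fell by as much (2.75% of all genes), although 9 fell at the adjusted p of 0.05, and DESeq2's Wald test also gave 0. Untreated and treated libraries did not overlap for 20 of the 33 members, beside 71.7% of all genes. The median log2FC of the members was 0.14, beside 0.01 for all genes, and their median absolute log2FC was 0.44, beside 0.43. With scaling to library size only, which moved the median of all genes to 0.14, 20 members rose and 5 fell, so that 80.0% of the calls were rises in place of 65.4%.

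**Figure D1:**
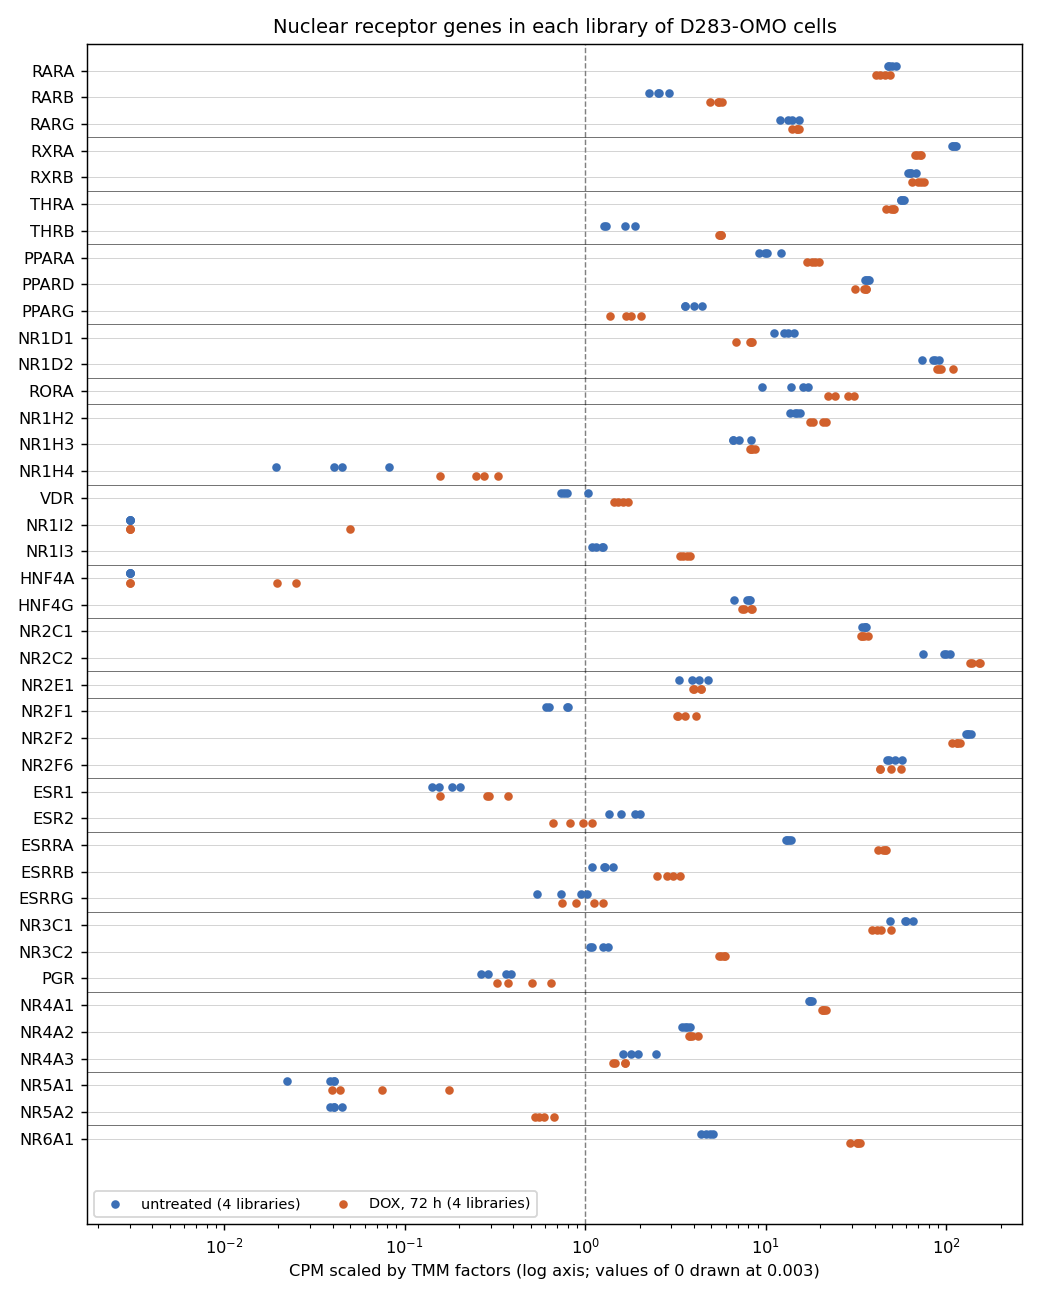
Level of each of the 41 nuclear receptor genes in each library, in CPM scaled by TMM factors on a log axis, with untreated libraries in blue and libraries of cells given DOX for 72 h in orange. Thin lines part the subfamilies, the dashed line is at 1 CPM and values of 0 are drawn at 0.003. Levels spread from 0 counts for HNF4A and NR1I2 in untreated cells to 153 CPM for NR2C2 in 1 library with DOX.

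Levels were divided by the merged length of all annotated exons of each gene. Which transcripts the cells used was not measured, so genes with long unused exons may stand too low in this order. The highest members in untreated cells were NR2F2 (COUP-TFII) at 20.4 ± 0.557 CPM per kb, NR2F6 at 19.0 ± 1.68 and RXRB at 16.3 ± 0.686 CPM per kb (SD, n = 4). NR2F2 and NR2F6 did not differ beyond their spread. NR1D2 followed at 14.4 ± 1.31 CPM per kb and RARA at 10.4 ± 0.463 CPM per kb. With DOX the same 3 genes led, with RXRB at 17.9 ± 1.10, NR2F6 at 17.9 ± 2.26 and NR2F2 at 17.6 ± 0.752 CPM per kb, and the 3 values lay within their spread. ESRRA moved from place 13 to place 5, from 4.39 ± 0.130 to 14.7 ± 0.668 CPM per kb, and NR6A1 from place 25 to place 14. PPARG moved the other way, from place 21 to place 30.

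**Figure D2:**
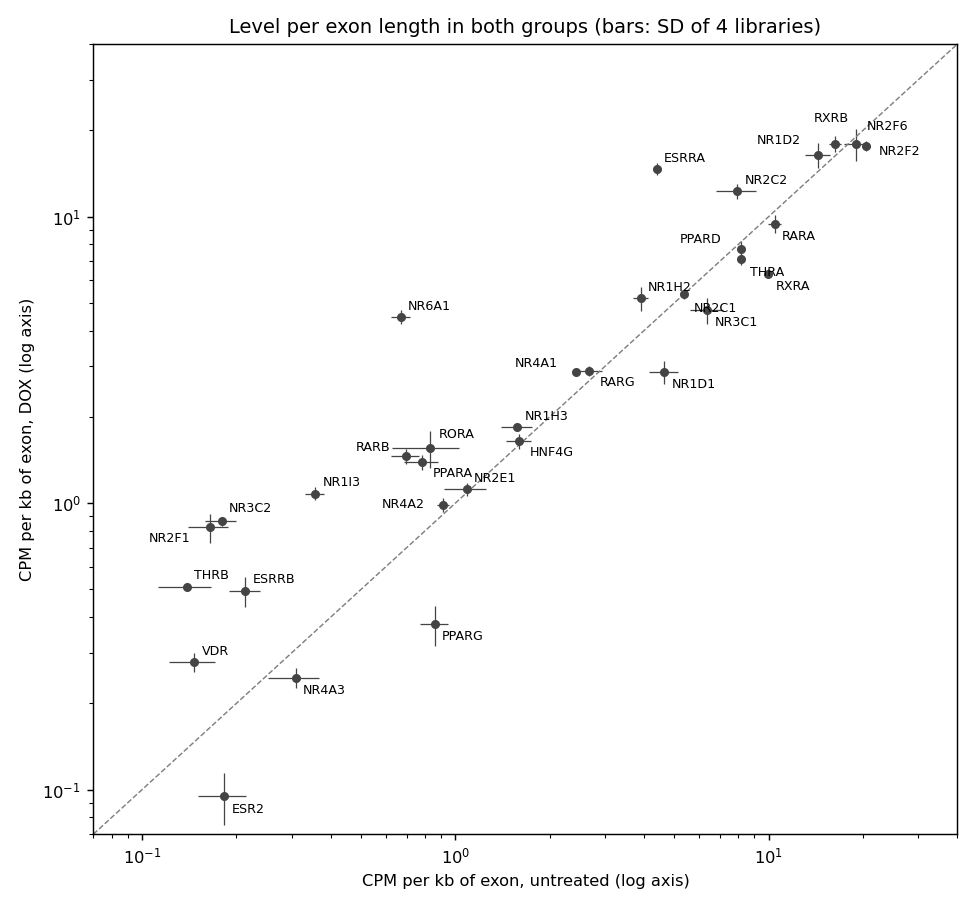
Level per kb of exon of the 33 members tested, untreated on the x axis and DOX on the y axis (both log axes, mean and SD of 4 libraries). Members on the dashed line had equal levels in both groups. ESRRA, NR6A1, NR3C2, NR2F1 and THRB stand farthest above it, PPARG and ESR2 farthest below.

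Some close relatives were called in opposite directions. Of 11 subfamilies with 2 or more called members, 8 had members called in opposite directions: the retinoic acid, retinoid X, thyroid hormone, PPAR, REV-ERB, COUP-TF, corticosteroid and NR4A receptors. In the other 3 (LXR, estrogen-related, and the vitamin D and xenobiotic receptors) all called members rose. With 17 rises and 9 falls among the members some mixed subfamilies follow from the counts alone, no expected share was computed, and nothing particular to the family is read from this count. The calls behind these splits differ in strength. In the retinoic acid, retinoid X, REV-ERB and NR4A receptors, 1 of the calls (RARA, RXRB, NR1D2 and NR4A3) was lost in at least 5 of the 8 fits that leave out 1 library, and in the thyroid hormone and COUP-TF receptors the fall of THRA and NR2F2 was lost with scaling to library size only. Only in 2 of the 8, the PPAR and corticosteroid receptors, were both calls kept in every alternative that gave a value. Within a library both members of a pair share the scaling, so the ratio of their levels per kb does not depend on it, and such ratios are given below as a description for the split pairs.

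The retinoic acid receptors bind retinoic acid made from vitamin A, and RARB is itself a classical retinoic acid target. The region just before one of its annotated starts is shown because it is the only window among those of 37 members that held a DR5 element, the repeat of 2 half-sites with 5 bases between them that retinoic acid receptors bind. The half-sites of the element, which begins 53 bases before the start, are in capitals in these 250 bases (RefSeq, GRCh38.p14, plus strand, chr3:25428013-25428262).
RARB promoter: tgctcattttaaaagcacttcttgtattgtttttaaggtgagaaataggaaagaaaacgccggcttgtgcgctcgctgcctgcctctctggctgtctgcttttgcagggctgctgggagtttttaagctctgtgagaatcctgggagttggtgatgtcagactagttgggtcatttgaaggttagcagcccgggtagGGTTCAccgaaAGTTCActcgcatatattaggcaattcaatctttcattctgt
Only 0.0883% of 35116 such windows, each of 250 bases before to 50 bases after a start, held a DR5 element on either strand. RARB, on chromosome 3 from 25174332 to 25597932 of GRCh38, stood at 2.27, 2.90, 2.54 and 2.58 CPM in the untreated replicates and at 5.70, 4.93, 5.53 and 5.42 CPM with DOX. Every treated library was above every untreated one, with a log2FC of 1.07 (SE 0.10, edgeR quasi-likelihood adjusted p = 1.1e-06). The more abundant RARA, widely expressed in many tissues, gave 48.0, 47.5, 52.3 and 49.8 CPM untreated and 45.7, 40.9, 43.2 and 48.5 CPM with DOX. Its groups overlapped, and its log2FC of -0.15 (SE 0.06, edgeR quasi-likelihood adjusted p = 0.0374) became -0.02 (adjusted p = 0.739) with scaling to library size only. The call was also lost without untreated replicate 3 or 4 or treated replicate 1, 2 or 3 (adjusted p 0.0519 to 0.0987). RARG, the third of the receptors, went from 13.7 ± 1.38 to 14.8 ± 0.585 CPM with a log2FC of 0.12 (adjusted p = 0.167). The level of RARA per kb was 15.1 ± 1.68 times that of RARB in untreated and 6.46 ± 0.387 times in treated cells (SD, n = 4).

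The retinoid X receptors are the common partners of the heterodimers. RXRA gave 107, 109, 112 and 113 CPM in untreated cells and 72.4, 66.9, 68.9 and 71.7 CPM with DOX. All treated libraries were below all untreated ones, with a log2FC of -0.66 (SE 0.04, edgeR quasi-likelihood adjusted p = 6.98e-08). RXRB gave 61.1, 63.3, 67.6 and 63.7 CPM untreated and 69.2, 64.7, 74.8 and 72.3 CPM with DOX, and the groups overlapped at a log2FC of 0.14 (SE 0.05, adjusted p = 0.037). This call was lost without untreated replicate 1, 2 or 4 or treated replicate 1, 3 or 4 (adjusted p 0.0596 to 0.126). In untreated cells RXRB was the higher of these 2 per kb, though RXRA was the higher in CPM. Their merged exons measured 3.92 kb for RXRB and 11.083 kb for RXRA. The ratio of RXRB to RXRA per kb went from 1.64 ± 0.0473 to 2.84 ± 0.166. RXRB shares 244 exon bases with SLC39A7 on the other strand, which had a log2FC of 0.11. The kit keeps the strand, but the setting used in counting is not given in the sources used here, so reads of genes that overlap on opposite strands may not have been parted.

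The thyroid hormone receptors were parted in the same way. THRB, on chromosome 3 from 24117153 to 24495756, stood at 1.88, 1.28, 1.30 and 1.66 CPM in untreated cells and at 5.58, 5.68, 5.63 and 5.53 CPM with DOX. The treated libraries were nearly equal and far above the untreated ones, with a log2FC of 1.88 (SE 0.12, edgeR quasi-likelihood adjusted p = 5.3e-08). THRA, on chromosome 17, gave 58.0, 56.2, 57.4 and 55.7 CPM untreated and 50.7, 46.2, 49.4 and 51.1 CPM with DOX. The groups did not overlap and the log2FC was -0.20 (SE 0.05, adjusted p = 0.00152), but with library size only it was -0.08 (adjusted p = 0.14). THRA remained the main thyroid hormone receptor RNA, at 60.1 ± 10.9 times the level of THRB per kb in untreated and 13.9 ± 0.78 times in treated cells.

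Among the receptors for fatty acids and their derivatives, PPARA, known for driving fatty acid oxidation, gave 12.2, 9.91, 9.13 and 10.2 CPM in untreated and 18.7, 19.7, 17.01 and 17.96 CPM in treated cells. It rose without overlap, with a log2FC of 0.82 (SE 0.09, edgeR quasi-likelihood adjusted p = 3.34e-06). PPARG, the regulator of fat cell formation, gave 4.00, 3.58, 3.58 and 4.42 CPM untreated and 1.68, 1.37, 1.80 and 2.03 CPM with DOX. This was the largest fall among the members, without overlap, at a log2FC of -1.17 (SE 0.13, edgeR quasi-likelihood adjusted p = 5.36e-06). PPARD was the most abundant of the subfamily at 36.3 ± 0.763 and 34.4 ± 2.22 CPM, with a log2FC of -0.08 (adjusted p = 0.201). The ratio of PPARG to PPARA per kb went from 1.11 ± 0.132 to 0.275 ± 0.0557.

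The REV-ERB receptors NR1D1 and NR1D2 bind heme and repress clock genes such as ARNTL. NR1D2 is shown because 1 of its 2 promoter windows held 2 copies of the E-box CACGTG, at 155 and 105 bases before its start. This E-box is the palindrome bound by MYC with MAX and by CLOCK with ARNTL. Which annotated start of NR1D2 the cells used was not measured. The E-boxes are in capitals (RefSeq, GRCh38.p14, plus strand, chr3:23945871-23946120).
NR1D2 promoter: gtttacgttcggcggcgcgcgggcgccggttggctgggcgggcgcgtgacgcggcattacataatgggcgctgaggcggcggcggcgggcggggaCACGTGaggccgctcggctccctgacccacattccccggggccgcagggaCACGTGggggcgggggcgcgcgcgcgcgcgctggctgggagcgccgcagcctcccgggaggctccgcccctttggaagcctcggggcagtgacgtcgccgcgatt
CACGTG was found on either strand in 7.26% of the 35116 windows, in 9.33% of the windows of genes tested and in 9 of the 91 windows of members. These 9 belong to ESR2, NR1D2, NR2C1, NR2F2, NR5A1, PGR and RARA, and those of ESR2 and of PGR overlap and share an E-box. No enrichment among the members is read from this. Of these 7 genes, NR1D2 rose, ESR2, NR2F2 and RARA fell, NR2C1 passed in neither direction and NR5A1 and PGR were below the filter. NR1D2 gave 91.0, 84.5, 73.1 and 86.2 CPM untreated and 93.2, 109, 91.0 and 88.4 CPM with DOX. Its groups overlapped, and the call at a log2FC of 0.19 (SE 0.08, edgeR quasi-likelihood adjusted p = 0.0478) was lost without untreated replicate 2, 3 or 4 or treated replicate 1, 2 or 3 (adjusted p 0.053 to 0.15). NR1D1 gave 12.7, 11.1, 14.4 and 13.2 CPM untreated and 8.24, 6.88, 8.43 and 8.21 CPM with DOX. It fell without overlap, with a log2FC of -0.69 (SE 0.09, adjusted p = 2.69e-05). NR1D1 and THRA share 263 exon bases on opposite strands. NR1D2 was 3.14 ± 0.526 times as high per kb as NR1D1 in untreated and 5.81 ± 1.18 times in treated cells. RORA, the activator that competes with the REV-ERB receptors for the same elements, went from 14.1 ± 3.38 to 26.4 ± 3.91 CPM (SD, n = 4), for a log2FC of 0.90 (SE 0.16, adjusted p = 0.000275). Untreated replicate 3 held the lowest RORA level, 9.51 CPM, against 13.7 to 17.1 CPM in the other untreated libraries. That library also held the lowest untreated levels of NR2C2, ESR2 and NR3C1. Without it the log2FC was 0.75 for RORA, 0.53 for NR2C2, -1.04 for ESR2 and -0.52 for NR3C1, and all 4 stayed called.

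A REV-ERB, a thyroid hormone and a retinoic acid receptor gene lie together at 2 places of the genome, and their members moved together in each, a pattern noticed after the values were seen. On chromosome 3, NR1D2, THRB and RARB lie between 23945260 and 25597932 of GRCh38, and all 3 rose. On chromosome 17, THRA, NR1D1 and RARA lie between 40058290 and 40357643, and all 3 fell. Other genes that overlap these stretches did not follow 1 direction. On chromosome 3 the other 2 genes tested were NKIRAS1, which rose by 1.46 on the log2 scale, and TOP2B, which fell by 0.33 on the log2 scale. Both reach only into the ends of the stretch, with NKIRAS1 ending at 23946591 and TOP2B beginning at 25597905. No other tested gene lies wholly within it. On chromosome 17, 3 of the 7 others rose, 2 fell and 2 passed in neither direction, with a median log2FC of 0.01. Of these 7, MED24 lies mostly outside the stretch, ending at 40061215. The falls of THRA and RARA did not pass the test with scaling to library size only, and the rise of NR1D2 was near the threshold as given above.

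The COUP-TF receptors are orphan receptors of early neural and vascular development, known mostly as repressors. NR2F1, on chromosome 5 from 93583224 to 93594615, gave 0.633, 0.793, 0.610 and 0.807 CPM in untreated cells, below the filter's 1 CPM in each, and 4.12, 3.27, 3.23 and 3.59 CPM with DOX. It passed the filter through the treated libraries alone, and rose with a log2FC of 2.32 (SE 0.14, edgeR quasi-likelihood adjusted p = 2.68e-08). NR2F2, on chromosome 15, gave 137, 132, 128 and 132 CPM untreated and 119, 108, 115 and 114 CPM with DOX. It fell slightly and without overlap, at a log2FC of -0.21 (SE 0.05, adjusted p = 0.00119), which became -0.09 (adjusted p = 0.125) with library size only. NR2F6 gave 51.7, 48.2, 56.9 and 46.8 CPM untreated and 43.1, 43.1, 49.3 and 55.8 CPM with DOX, overlapping at a log2FC of -0.09 (adjusted p = 0.375). Per kb, NR2F2 was 126 ± 18.9 times as high as NR2F1 in untreated and 21.6 ± 1.83 times in treated cells.

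Antisense genes are named for several members. NR2F1-AS1 went from 0.316 ± 0.111 to 1.65 ± 0.125 CPM (SD, n = 4), for a log2FC of 2.37 (SE 0.20, edgeR quasi-likelihood adjusted p = 4.83e-07), but it passed the filter through the treated libraries alone and so had to differ to be tested. NR2F2-AS1 went from 1.66 ± 0.430 to 0.745 ± 0.187 CPM, a log2FC of -1.14 (SE 0.22, adjusted p = 0.000594). With a treated mean below 1 CPM, it passed the filter mainly through the untreated libraries, where it is high. NR2F1-AS1 shares 158 exon bases with NR2F1 on the other strand. RARA-AS1, which shares 556 exon bases with RARA, stood at 2.12 ± 0.246 and 2.14 ± 0.541 CPM, with a log2FC of 0.01. RORA-AS1 and NR4A1AS stood below 1 CPM on average in both groups, and RORA-AS2, THRB-AS1 and THRB-IT1 at or near 0.

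The corticosteroid receptors showed one of the widest splits. The mineralocorticoid receptor NR3C2, which also binds cortisol with high affinity, lies on chromosome 4 from 148078762 to 148444698. It gave 1.06, 1.08, 1.34 and 1.26 CPM in untreated and 5.93, 5.86, 5.47 and 5.61 CPM in treated cells. It rose without overlap, with a log2FC of 2.27 (SE 0.10, edgeR quasi-likelihood adjusted p = 2.11e-09). The glucocorticoid receptor NR3C1 gave 59.3, 65.7, 48.6 and 60.0 CPM untreated and 43.6, 49.2, 41.3 and 38.8 CPM with DOX. Treated replicate 2 lay above untreated replicate 3, and the log2FC was -0.44 (SE 0.09, adjusted p = 0.00116). NR3C1 stayed the main one, at 36.1 ± 7.68 times the level of NR3C2 per kb in untreated and 5.44 ± 0.45 times in treated cells.

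The NR4A receptors are immediate-early orphan receptors that respond to growth and stress signals within the hour. NR4A1 gave 17.96, 17.6, 17.6 and 17.4 CPM untreated and 20.9, 20.5, 20.6 and 21.7 CPM with DOX. The change was small but without overlap, a log2FC of 0.25 (SE 0.04, edgeR quasi-likelihood adjusted p = 0.000346). NR4A3 gave 1.61, 2.46, 1.79 and 1.97 CPM untreated and 1.46, 1.67, 1.43 and 1.65 CPM with DOX, with overlap and a log2FC of -0.34 at the threshold (SE 0.14, adjusted p = 0.0495). The call was lost without untreated replicate 2 or 4 or any 1 treated replicate (adjusted p 0.0568 to 0.158). NR4A2, a factor of dopaminergic neurons, stood at 3.62 ± 0.158 and 3.92 ± 0.219 CPM with a log2FC of 0.12 (adjusted p = 0.226). The ratio of NR4A1 to NR4A3 per kb went from 8.01 ± 1.45 to 11.7 ± 0.909.

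**Figure D3:**
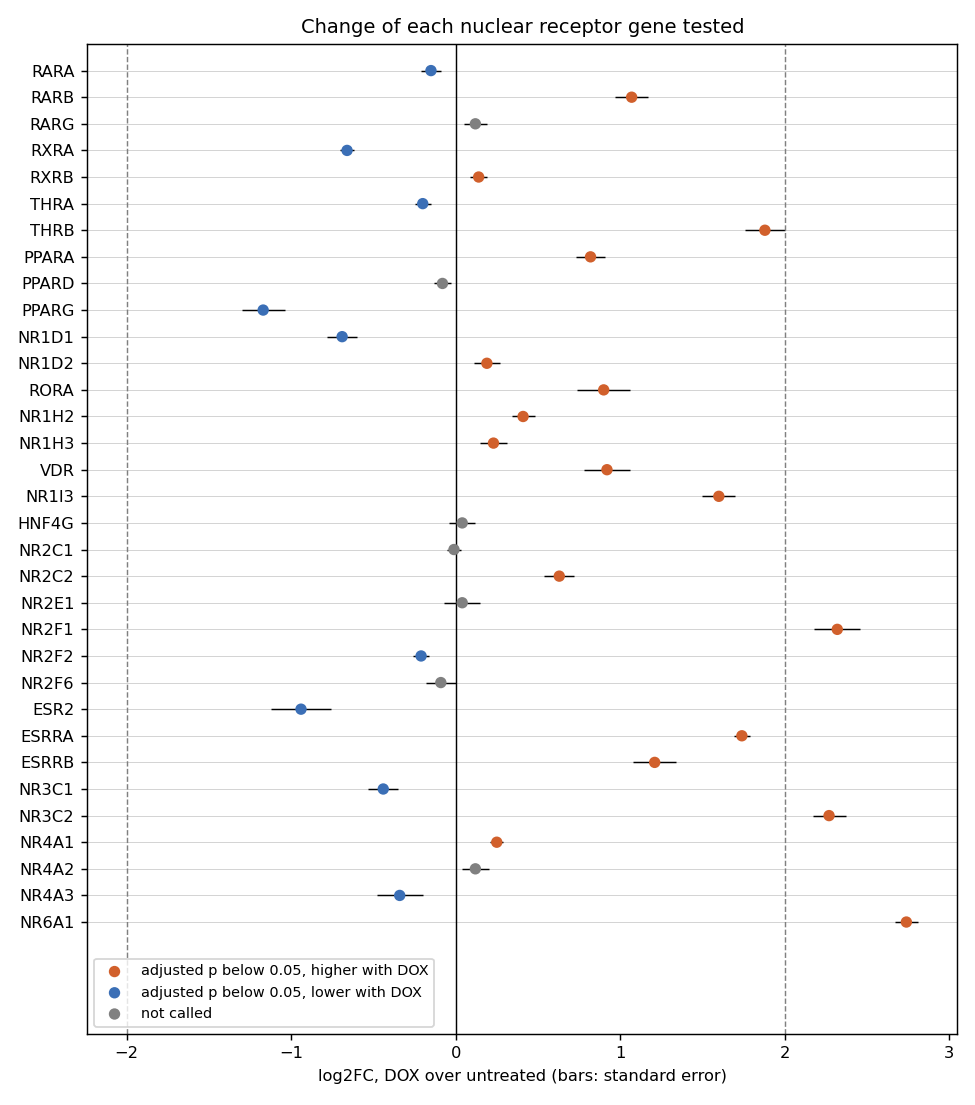
log2FC of each of the 33 members tested, DOX over untreated, with its standard error, ordered by subfamily. Orange marks the 17 members that rose, blue the 9 that fell and grey the 7 not called, and dashed lines are at -2 and 2. NR6A1, NR2F1 and NR3C2 lie beyond 2, and neighbours of a subfamily often lie on opposite sides of 0.

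The largest log2FC among the 33 members that passed the filter belonged to a receptor without close relatives, and below the filter that of NR5A2, given further on, was larger. NR6A1 (GCNF), known as a repressor of pluripotency genes such as POU5F1 in the early embryo, is encoded on chromosome 9, minus strand, from 124517275 to 124771310. It gave 4.92, 4.64, 4.39 and 5.13 CPM in untreated and 32.2, 32.5, 33.2 and 29.1 CPM in treated cells. The treated libraries were all several times above the untreated ones, with a mean 6.65 times as high, a log2FC of 2.74 (SE 0.07) and an adjusted p of 1.38e-11 in edgeR's quasi-likelihood test. In the order of all 15222 genes by log2FC this was place 434.

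The estrogen-related receptors, orphan receptors that work with the PGC-1 coactivators on mitochondrial and metabolic genes, rose where tested. ESRRA, on chromosome 11 from 64305572 to 64316743, gave 13.5, 12.9, 13.8 and 13.04 CPM untreated and 44.4, 41.6, 46.0 and 45.8 CPM with DOX. The groups were far apart, with a log2FC of 1.74 (SE 0.05, edgeR quasi-likelihood adjusted p = 5.03e-11), below the threshold of 2. It shares 284 exon bases with TRMT112 on the other strand, which had a log2FC of -0.14. ESRRB went from 1.27 ± 0.141 to 2.93 ± 0.353 CPM (SD, n = 4), for a log2FC of 1.21 (SE 0.13). ESRRG did not pass the filter, at 159 counts over the untreated and 188 over the treated libraries.

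The estrogen receptors proper were low. A promoter window of ESR2 (estrogen receptor beta) is shown as that of a member with an E-box that fell. Of 5 windows of ESR2, 2 held CACGTG, and these overlap and share it. Which annotated start of ESR2 the cells used was not measured. In the window shown, CACGTG is in capitals at 36 bases before the start (RefSeq, GRCh38.p14, minus strand, chr14:64294411-64294660).
ESR2 promoter: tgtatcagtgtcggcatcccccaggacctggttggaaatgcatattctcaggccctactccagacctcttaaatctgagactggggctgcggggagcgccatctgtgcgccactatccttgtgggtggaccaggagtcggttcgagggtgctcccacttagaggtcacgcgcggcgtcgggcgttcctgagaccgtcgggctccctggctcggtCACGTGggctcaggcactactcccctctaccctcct
ESR2 went from 1.71 ± 0.295 to 0.885 ± 0.182 CPM (SD, n = 4), without overlap and with a log2FC of -0.94 (SE 0.18, edgeR quasi-likelihood adjusted p = 0.000486). It passed the filter with all 4 untreated but only 2 treated libraries above 1 CPM. It shares 523 exon bases with the gene AL161756.1 on the same strand. ESR1 had 33 counts over the 4 untreated and 51 over the 4 treated libraries, and the progesterone receptor PGR 64 and 89. At these depths the ratio was 1.60 for ESR1 (95% interval 1.02 to 2.56) and 1.44 for PGR (1.03 to 2.02), intervals that cover counting error only.

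Several receptors for sterols, vitamin D and foreign compounds rose. The oxysterol receptors NR1H2 (LXR beta) and NR1H3 (LXR alpha) went from 14.6 ± 0.76 to 19.5 ± 1.89 CPM and from 7.16 ± 0.815 to 8.37 ± 0.258 CPM (SD, n = 4), log2FC of 0.41 and 0.23, the second with overlap (edgeR quasi-likelihood adjusted p = 0.0284). The call of NR1H3 was lost without untreated replicate 1, 2 or 4 or treated replicate 1 or 3 (adjusted p 0.0565 to 0.103). NR1H3 shares 189 exon bases with ACP2 on the other strand, which had a log2FC of 0.99. The vitamin D receptor VDR went from 0.833 ± 0.141 to 1.58 ± 0.117 CPM, a log2FC of 0.92 (SE 0.14), and passed the filter with all treated but not all untreated libraries. NR1I3 (CAR), best known from liver, went from 1.18 ± 0.0814 to 3.57 ± 0.193 CPM, a log2FC of 1.60 (SE 0.10, adjusted p = 4.61e-08). It shares 661 exon bases with TOMM40L on the other strand, which had a log2FC of 1.57 and stood at 74.1 CPM with DOX, and the part of TOMM40L reads in the NR1I3 counts was not tested. The liver receptors NR1I2 (PXR) and HNF4A had no count in untreated cells and 2 counts each over the treated libraries, under the floor of 3 counts per library, while HNF4G held 7.69 ± 0.709 and 7.91 ± 0.499 CPM with a log2FC of 0.04 (adjusted p = 0.678).

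**Figure D4:**
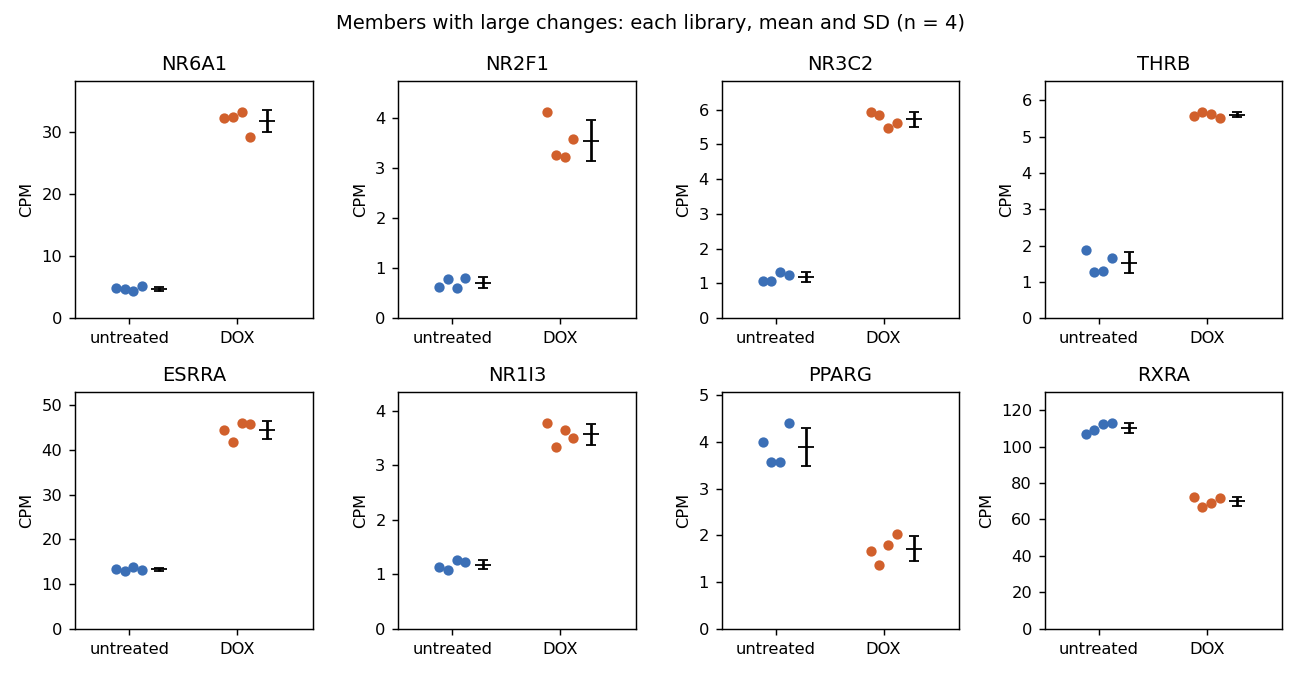
Level of 8 members in each library in CPM, from 0, with points for the 4 untreated (blue) and 4 DOX-treated (orange) libraries and the mean and SD beside them. In all 8 panels the groups are apart: NR6A1, NR2F1, NR3C2, THRB, ESRRA and NR1I3 are higher with DOX, and PPARG and RXRA lower.

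Of the remaining orphan receptors, NR2C2 (TR4) went from 93.8 ± 13.6 to 145 ± 8.71 CPM (SD, n = 4), for a log2FC of 0.63 (SE 0.09, edgeR quasi-likelihood adjusted p = 7.6e-05). It shares 1197 exon bases with MRPS25 on the other strand, which had a log2FC of 0.45. Its relative NR2C1 (TR2) stood at 35.1 ± 0.694 and 35.0 ± 1.38 CPM, so that NR2C2 per kb went from 1.47 ± 0.215 to 2.29 ± 0.0956 times NR2C1. NR2E1 (TLX), which keeps neural stem cells dividing, stood at 4.06 ± 0.628 and 4.18 ± 0.225 CPM with a log2FC of 0.04 (adjusted p = 0.731). NR5A2 (LRH-1) was below the filter but had 8 counts over the untreated and 109 over the treated libraries, a ratio of 14.1 (95% interval 6.92 to 33.6). NR1H4 (FXR), the bile acid receptor, had 9 and 47 counts, a ratio of 5.42 (2.62 to 12.6). Without a filter these 2 of the 8 members below it were called higher and none lower, with log2FC of 3.72 (adjusted p = 9.86e-10) and 2.35 (adjusted p = 0.000205), and 5 members in place of 3 then passed the thresholds for differential expression. NR5A1 (SF-1) had 7 and 16 counts, a ratio of 2.37 (0.923 to 6.81).

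The partners of the receptors were counted next. Of 28 coregulators and chaperones, all tested, 6 rose (21.4%, beside 38.5% of all genes), 10 fell (35.7%, beside 38.1%) and 12 passed in neither direction, with a median log2FC of -0.03. PPARGC1B, a PGC-1 coactivator of the estrogen-related receptors, rose from 17.2 ± 2.48 to 271 ± 17.6 CPM (SD, n = 4), for a log2FC of 3.98 (SE 0.10, edgeR quasi-likelihood adjusted p = 1.76e-11), whereas PPARGC1A stood at 4.26 ± 0.481 and 4.61 ± 0.388 CPM. The corepressor NCOR1 had a log2FC of 0.09 (adjusted p = 0.349). The coactivator NCOA1 and the ligand-dependent corepressor NRIP1 both had a log2FC of 0.94. Of the steroid receptor chaperones, PTGES3 (p23) fell by 1.04 and HSP90AB1 by 0.77 on the log2 scale, and FKBP4 had a log2FC of -0.06 (adjusted p = 0.4).

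Of 39 genes that make, carry or remove ligands, 20 were tested, of which 9 rose (45.0%, beside 38.5% of all genes), 10 fell (50%, beside 38.1%) and 1 passed in neither direction, with a median log2FC of 0.02. In the retinoid pathway RPE65, the isomerase of the visual cycle, rose from 21.0 ± 1.24 to 103 ± 6.84 CPM (log2FC 2.29, edgeR quasi-likelihood adjusted p = 3.19e-11). The retinoic acid carrier CRABP2 fell from 441 ± 42.9 to 115 ± 6.74 CPM (log2FC -1.94), the retinol importer STRA6 from 50.3 ± 2.60 to 15.1 ± 0.749 CPM (log2FC -1.74), and the enzymes ALDH1A2 and ALDH1A3, which make retinoic acid, by 0.77 and 0.76 on the log2 scale. ALDH1A1, listed with them, was below the filter and went the other way, from 0.0107 ± 0.0124 to 0.220 ± 0.0687 CPM. Without a filter its log2FC was 4.10 (edgeR quasi-likelihood adjusted p = 9.33e-06). The largest fall was that of HSD11B2, which inactivates cortisol and so guards the mineralocorticoid receptor, from 3.04 ± 0.237 to 0.607 ± 0.187 CPM (log2FC -2.30, SE 0.18), and it passed the filter through the untreated libraries alone. SLC16A10, a transporter of thyroid hormone, rose with a log2FC of 0.70. CYP27B1, which makes active vitamin D, fell by 0.69 on the log2 scale.

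Of 32 genes known as targets of these receptors in other tissues, 20 were tested, of which 7 rose (35.0%, beside 38.5% of all genes), 11 fell (55.0%, beside 38.1%) and 2 passed in neither direction, with a median log2FC of -0.41 beside 0.01 for all genes. TGM2 and ABCG1 passed the filter through the treated libraries alone and THRSP through the untreated ones alone, and with the stricter filter 5 rose and 10 fell. Among retinoic acid targets TGM2 and DHRS3 rose (log2FC 2.38 and 0.49), and STRA6 and RARRES2 fell (-1.74 and -1.36). Among LXR targets the cholesterol exporter ABCG1 was at 0 counts in all untreated libraries and at 7.78 ± 0.313 CPM with DOX, at least 126-fold higher against a floor of 3 counts per library. SREBF1 and MYLIP rose with log2FC of 0.25 and 0.61, whereas LPCAT3 fell by 0.95 on the log2 scale. Of the glucocorticoid targets, SGK1 fell from 280.3 ± 27.3 to 62.3 ± 1.81 CPM (log2FC -2.17), MT2A had a log2FC of -2.62, DUSP1 one of -0.85 and FKBP5 one of -0.31. Not every glucocorticoid target of the list is named, and PER1, counted here and among the clock genes, was not one of those that fell. The largest fall was that of the thyroid hormone target THRSP, at a log2FC of -3.21 (SE 0.15, edgeR quasi-likelihood adjusted p = 2.34e-09), and KLF9, a target of thyroid and glucocorticoid hormone, fell by 1.40 on the log2 scale. The thyroid hormone target HR fell by 0.51 on the log2 scale. The estrogen target GREB1 rose from 1.67 ± 0.21 to 13.4 ± 0.809 CPM (log2FC 3.0). CPT1A, a PPARA target in fatty acid oxidation, fell by 0.94 on the log2 scale.

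Clock genes, several of which the REV-ERB and ROR receptors control, were counted last. Of 20 genes 19 were tested, of which 14 rose (73.7%, beside 38.5% of all genes), 3 fell (15.8%, beside 38.1%) and 2 passed in neither direction, with a median log2FC of 0.63. BHLHE41 and CIART passed the filter through the treated libraries alone, and with the stricter filter 12 rose. The list was chosen with earlier results known, so this count is a description. ARNTL (BMAL1) rose with a log2FC of 0.47, CLOCK with 0.72, PER2 with 0.73 and CRY1 with 1.19 (edgeR quasi-likelihood adjusted p = 4.04e-10). BHLHE41, a repressor that binds E-boxes, had 2 counts over the untreated and 1916 over the treated libraries, a ratio of 994 (95% interval 275 to 8210). The 3 genes that fell were the PAR bZIP factors DBP (log2FC -1.33), HLF (-1.17) and TEF (-0.20), and the fall of TEF was lost with scaling to library size only (log2FC -0.07, edgeR quasi-likelihood adjusted p = 0.176). Single time points do not give the phase or amplitude of a rhythm. DHRS3, STRA6, CYP26A1, CYP24A1 and PER1 belong to 2 of these lists.

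**Figure D5:**
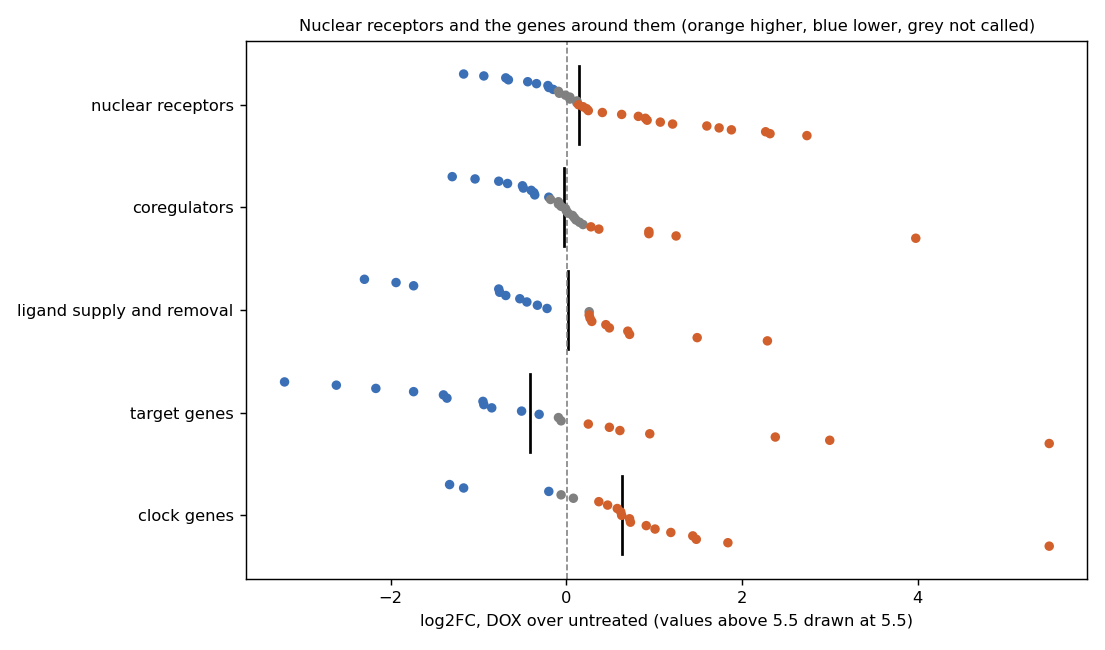
log2FC of each tested gene of the nuclear receptor list and of the 4 lists around it, DOX over untreated, with orange for rises, blue for falls and grey for genes not called. Black bars mark each list's median (0.14, -0.03, 0.02, -0.41 and 0.63 from top to bottom), the dashed line the median of all genes, and values above 5.5 are drawn at 5.5.

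Of the family members outside the list, RXRG fell from 644 counts over the untreated to 10 over the treated libraries, 3.30 ± 1.01 and 0.0547 ± 0.039 CPM (SD, n = 4), for a log2FC of -5.88 (SE 0.40, edgeR quasi-likelihood adjusted p = 7.16e-08), and it passed the filter through the untreated libraries alone. RORB rose with a log2FC of 0.74 (SE 0.13), and NR2E3 had 7 and 34 counts, a ratio of 5.04 (95% interval 2.20 to 13.5).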

How the data were processed

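PolyA+ RNA of 4 untreated and 4 DOX-treated D283-OMO cultures was sequenced in pairs after library preparation with a kit that keeps the strand. For trimming, the authors used Trim Galore, aligned reads to GRCh38 with STAR (GENCODE release 32) and deposited RSEM expected counts per gene, which are not normalized. RSEM divides reads that match several genes, and 12 of the 41 members had a count that is not whole. The strand setting of the counting is not given in the sources used here.

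Expected counts were rounded. Genes above 1 CPM in 4 or more of the 8 libraries were compared between the groups with edgeR 4.0.16 in R 4.3.3 (TMM factors, quasi-likelihood test, no covariates, Benjamini-Hochberg adjustment over 15222 genes). A gene was called at an adjusted p below 0.05, and differentially expressed where the FDR was below 0.001 and the log2FC beyond 2 in either direction, as the study's methods set it. The standard error is the absolute log2FC over the square root of the F statistic. Symbols, coordinates and exon lengths were taken from GENCODE 29 (GRCh38), where 58561 of 60668 identifiers were found (96.5%). Intervals of low counts are exact binomial ones of 95% on summed counts and, as the floor of 3 counts, cover counting error only. p-values set the difference between the groups against the spread between these cultures, and do not cover other transduced populations.

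The members and the lists around them were chosen with earlier results of these data known. Library values are given for members differentially expressed, for the 3 highest per kb in each group and for subfamilies called in opposite directions. Of other lists the largest rise and fall are named, plus up to 4 genes tied to a receptor described, except that some genes counted in these lists are not reported here by name. Genes named beyond this were chosen after their values were seen. Promoter windows are RefSeq's, on GRCh38.p14, and 91 windows matched 37 members. None was listed for NR4A2, HNF4G, NR2F6 and VDR. A window of NR2F2 with 2 E-boxes lies within its own exons and is not shown. Protein sequences and transcripts were not used here. ESRRG-AS1 and PPARA-AS1 were not matched and have no value.

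Alternatives were other scaling factors, DESeq2 1.42.0, other filters, a looser FDR (0.01), a block for replicate number and each library left out. The fits were tested on simulated data. Other steps used Python 3.11.15, pandas 2.3.3, numpy 2.4.6, scipy 1.17.1 and matplotlib 3.10.9.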

Additional observations from a re-analysis of the deposited data

Results flagged for a closer look

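Dixon's gap criterion for 4 values was applied to the 66 groups that the 33 tested members give (4 libraries each). It marked 1 group, where chance gives about 1 in 20 groups, or 3.3. NR1D1 stood at 6.88 CPM in DOX-treated replicate 2, below 8.21 to 8.43 CPM in the other treated libraries. That library also had the fewest counts, 38390696. Without it NR1D1 was still called lower.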

How the results depend on the processing

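Under the alternatives, 410 of 461 member log2FC kept their direction and their side of the threshold, 40 lost the call, 3 gained one and 8 turned sign. With scaling to library size only, 5 members in place of 9 fell, and PPARD, NR2C1 and NR2F6, not called before, turned to 0.05, 0.12 (edgeR quasi-likelihood adjusted p = 0.0317) and 0.04. NR2C1 also turned to 0.01 with a stricter filter that asked for 1 CPM in over 4 libraries. With 1 library left out, the log2FC ran from -0.03 to 0.01 for NR2C1, from -0.05 to 0.12 for NR2E1 and from -0.03 to 0.07 for HNF4G. Without a filter on low counts, 5 members were differentially expressed and 11 target genes rose in place of 7. Under the stricter filter, 2 members were differentially expressed, since NR2F1 no longer passed. Calls lost in at least 1 alternative were those of RARA, RXRB, NR1D2, NR1H3, NR4A3, THRA and NR2F2. With 1 library left out, between 14 and 17 members rose and between 7 and 9 fell. An FDR of 0.01 left 3 members differentially expressed.

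Libraries of equal replicate number, 1 to 4, had correlations of deviations from the group means of 0.157, 0.144, 0.241 and -0.176. The highest correlations with an unequal number were 0.212, 0.102, 0.346 and 0.157. Only replicate 2 exceeded that value, so whether equal numbers mark pairs is not settled. With the replicate number as a block, 17 members rose and 9 fell, and it changed no call of a member. Depth limits the 8 members below the filter. With library size only the falls of RARA, THRA, NR2F2 and NR4A3 were lost, and RARG and NR4A2 rose, both at 0.24.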
